A study of Mus musculus with 4 samples.

Results

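Transcripts from areas of testis tissue irradiated at Leydig cells were set against transcripts from entire testis sections, within mice that lack H3t, a testis histone H3 variant. The comparison rests on 6 of the 12 libraries of the series, 3 from each kind of irradiation, and on the 8091 of 28595 genes that had 20 or more counts summed over those 6 libraries. All 6 libraries came from 10 µm sections of H3t knockout testis prepared by photo-isolation chemistry. In that method ultraviolet light uncages blocked ends of the copied RNA, so that only the irradiated area, here either the entire section or only Leydig cells, enters the library. The labels name no further allele, agent or strain, and no age for the knockout mice, whereas the titles of the 6 wild-type libraries carry the word young. Nothing in them tells whether the 3 libraries of a kind are 3 animals or 1, and the p-values below therefore measure only the spread between libraries, which may be technical. The deposited barcode key gives each group its own library pool, so the irradiated region and the pool cannot be told apart.

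Leydig cells lie in the interstitium between the seminiferous tubules and make testosterone from cholesterol under the control of luteinizing hormone. Cholesterol is taken up or made in the cell, brought into mitochondria with the help of Star, cleaved by Cyp11a1 and then converted by Hsd3b enzymes, Cyp17a1 and Hsd17b3. Within the tubules, Sertoli cells nurse the germ cells, and peritubular myoid cells wrap the outside of each tubule.

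The Leydig-targeted libraries held 53003, 39688 and 15208 counts and the entire sections 475764, 392164 and 321771, an 11.0-fold difference in summed depth. Between 4251 and 8326 genes had a count in a Leydig-targeted library, and between 15198 and 15615 in a section. Across 2646 genes, pairs of Leydig-targeted libraries correlated at 0.50 to 0.62 and pairs of sections at 0.87 to 0.91, a description of noise in which genes are not replicates. Over the summed Leydig-targeted libraries 3 counts equal 27.8 CPM (counts per 1000000 counts of the library), the level that a count of 0 still allows, against 2.52 CPM in the sections. The row of the targeted gene, listed as H3f4, held 0 counts in all 6 libraries and 1 count over the 6 wild-type libraries, so it does not check the genotype. Insl3, the insulin-like peptide of Leydig cells, was not analysed here.

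The irradiated Leydig area differed from the entire section in 376 genes, 4.65% of those tested. An unadjusted p under 0.05 was met by 1867 genes. Of the 376, 108 genes were higher in the Leydig-targeted libraries, 1.33% of those tested, and 268 were lower, 3.31%, at an adjusted p under 0.05. Among the higher genes were the carboxylesterase Ces1d, the squalene synthase Fdft1 and the secreted precursor of angiotensin, Agt, and among the lower genes the Sertoli cell genes Cst9, Cst12, Cldn11 and Sox9. A lower level in these bulk libraries can come from fewer cells of a type or from less RNA per cell, and the 2 cannot be told apart. The lower calls needed genes well counted in the sections. None of the 2194 tested genes whose section level lay under the 27.8 CPM floor was called lower, while 38 of them were called higher. In the Leydig-targeted libraries many lower genes had few counts: 60 of the 268 had 0 and 62 had 1 to 3.

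**Figure D1:**
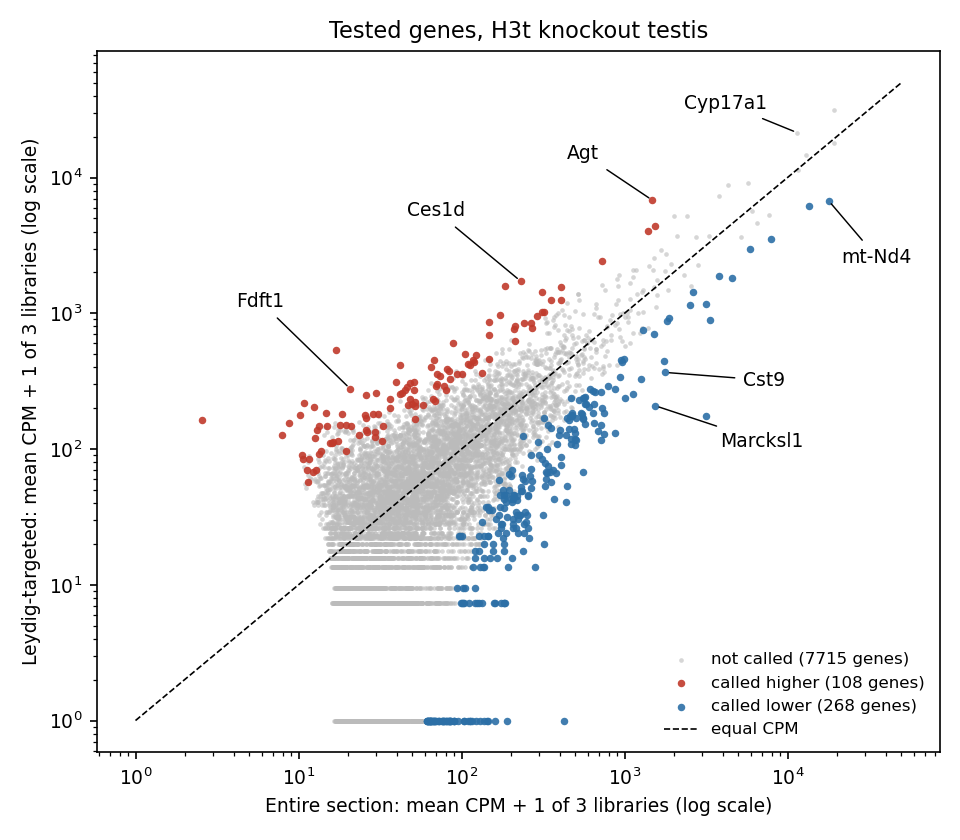
Mean CPM + 1 of 3 entire sections (x axis, log scale) against that of 3 Leydig-targeted libraries (y axis, log scale), 1 point for each of the 8091 genes tested in H3t knockout testis. The 108 genes called higher lie above the dashed line of equal CPM and the 268 called lower lie below it. Of the 268, 60 had 0 Leydig-targeted counts and lie at the bottom of the y axis.

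The split between higher and lower calls moved with how the libraries were scaled and with which genes were kept. The median log2 difference over all tested genes was -0.47 (quartiles -1.44 and 0.30) with the trimmed mean of M values (TMM), which gave Leydig-targeted library 3, the shallowest, a factor of 1.51. Scaled to library size alone, the median was -0.17 and 245 genes were higher and 168 lower, so that 59.3% of calls were higher against 28.7% with TMM. DESeq2 called 153 higher and 216 lower. Stricter filters, with TMM factors taken anew from the genes kept, gave a nearly even split. The expression filter of edgeR gave 229 higher and 243 lower of 3894 genes (median -0.16). A minimum of 100 summed counts gave 156 and 150 of 2646 genes (median -0.10). With TMM factors taken from genes of at least 100 summed counts, an alternative chosen after the data were seen, 290 were higher and 144 lower. Calls that held under TMM and all of 4 other scalings or tests (TMMwsp, DESeq2, library size and the added factors) were 85 higher and 141 lower genes, and 16 higher and 50 lower genes also kept their call when any 1 library was left out. Without section library 1 only 19 genes were higher and 57 lower, and without section library 3 the numbers were 36 and 69. The log2 differences below are from the TMM fit and are to be read against its median of -0.47. Counts of called list members are to be read against the 1.33% higher and 3.31% lower of all tested genes. These shares depend on the filter, as do the 6.98% of tested genes above and 23.2% below every section in CPM. The filter on summed counts admitted 735 genes with 0 Leydig-targeted counts and 0 genes with 0 section counts.

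**Figure D2:**
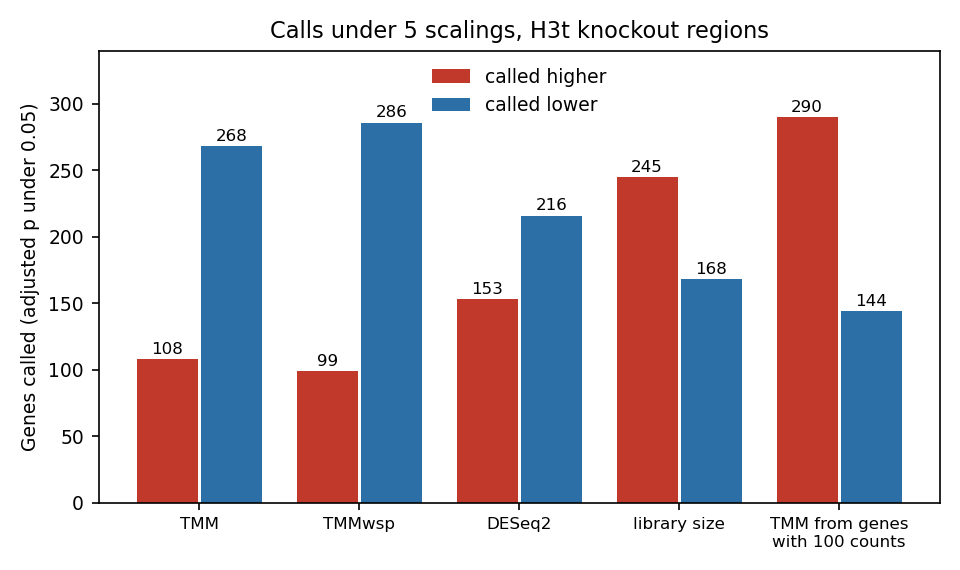
Genes called at an adjusted p under 0.05 (y axis) under 5 ways of scaling the 6 H3t knockout libraries (x axis), with 1 bar for genes higher and 1 for genes lower in Leydig-targeted libraries. TMM gave 108 and 268, library size 245 and 168, and TMM from genes with 100 counts 290 and 144.

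The higher genes named by rank had varied roles. Agt, on chromosome 8 (124556534 to 124569706, minus strand), encodes angiotensinogen, the precursor of the angiotensin peptides. It stood at 5717, 7735 and 6970 CPM in the Leydig-targeted libraries and at 1522, 1479 and 1442 in the sections. No library of the Leydig area came near a section, and the log2 difference was 1.85 ± 0.34 (SE, adjusted p = 3.0e-05). Ces1d (chromosome 8, 93166068 to 93197838, minus strand), an esterase that releases fatty acids from stored lipid, had 1453, 1361 and 2367 CPM against 181, 339 and 168. Its log2 difference was 2.5 ± 0.40 (adjusted p = 3.5e-07), and since the Ces1 esterases form a cluster of similar copies, its counts may be split among them.

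Pkdcc, a secreted tyrosine kinase, was at 1057, 932 and 592 CPM against 139, 173 and 124 (2.33 ± 0.42). Gramd1b, a protein that carries cholesterol from the plasma membrane to the endoplasmic reticulum and a member of the Leydig identity list, was at 491, 907 and 1512 CPM against 149, 158 and 205. Its groups did not overlap, although the Leydig-targeted libraries spread over a wide range (2.0 ± 0.42, adjusted p = 4.6e-04). Slc25a22, a mitochondrial glutamate carrier, rested on 16 counts in the Leydig-targeted libraries and 12 in the sections (3.58 ± 0.72). Prex2, an exchange factor for the small GTPase Rac, had 16 and 15 counts (3.22 ± 0.70), and Rnf130, a RING finger protein, 32 and 31 (3.19 ± 0.56). Gstm3, a glutathione transferase with close copies beside it in the genome, had 20 and 9 counts (4.19 ± 0.71). These 8 genes kept their call when any 1 library was left out, in all 6 such fits.

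Mir703 and Fdft1, given below, also kept their call in all 6 fits that left out 1 library. The other higher genes named by rank lost their call without certain libraries. Echdc3, an enoyl-CoA hydratase relative, was higher by a log2 difference of 3.15 ± 0.70 and was not called without section library 1 (adjusted p = 0.073). Slc45a3, a member of the sugar transporter family, was higher by 2.39 ± 0.56 and was not called without section library 3 (0.055). Rasd1, a Ras-related protein induced by glucocorticoid, was higher by 2.29 ± 0.53 and Ifi27, an interferon-induced gene, by 1.86 ± 0.46. Both lost their call without section library 1 or 3, with adjusted p from 0.061 to 0.085.

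**Figure D3:**
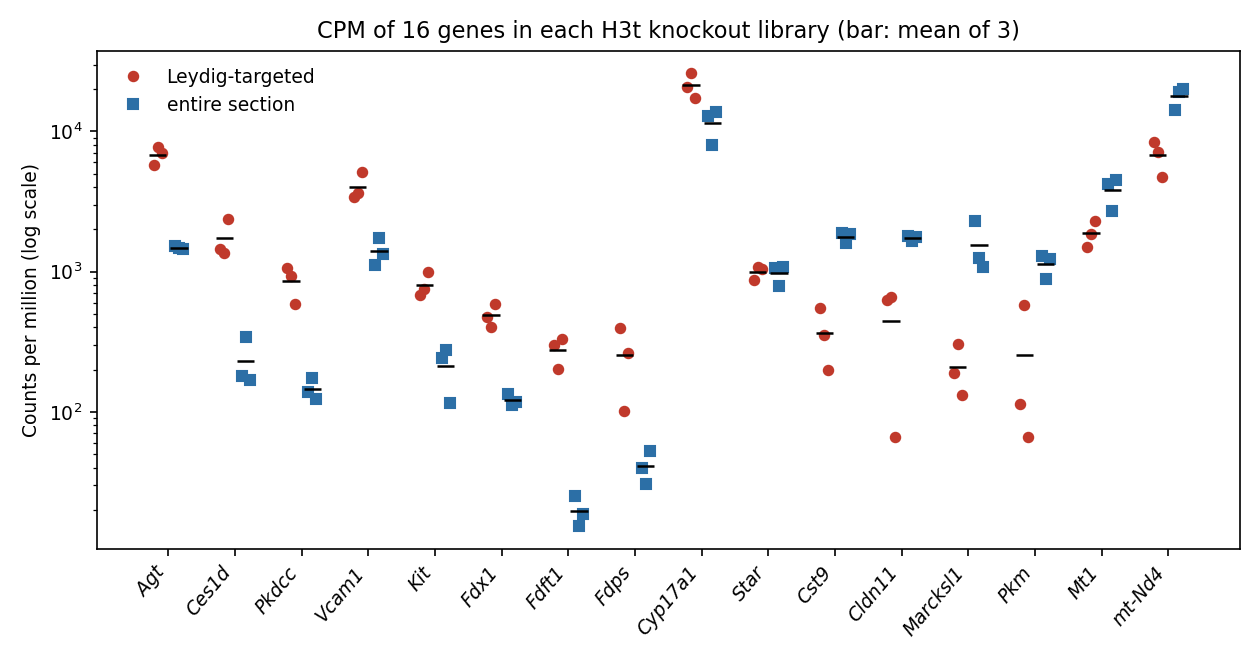
CPM (y axis, log scale) of 16 genes in each of the 6 H3t knockout libraries, with circles for Leydig-targeted libraries, squares for entire sections and a bar for each mean of 3. Agt, Ces1d, Pkdcc and Fdft1 sit higher in every Leydig-targeted library, Cst9, Cldn11, Marcksl1 and mt-Nd4 sit lower in every one, and Star overlaps.

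One higher row was a microRNA locus, Mir703, with 42 counts in the Leydig-targeted libraries and 50 in the sections. Its level was 321, 454 and 460 CPM against 44.1, 51.0 and 28.0, with no overlap, a log2 difference of 2.94 ± 0.50 and an adjusted p of 4.3e-06. The row counts reads over the hairpin locus on chromosome 5 and does not measure the mature microRNA. The mature sequence is shown because the seed, bases 2 to 8 in capitals, defines which targets a microRNA can pair with. It is from RefSeq on GRCm38.p6, chr5:98475616-98475636, minus strand, 5′ to 3′, and of its 1738 mature mouse sequences only this one had the seed.
mmu-miR-703: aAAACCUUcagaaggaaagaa

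The steroid-making enzymes were higher in share of counts, but few passed the test singly. The steroidogenesis list held 4.11%, 4.90% and 4.29% of the counts in Leydig-targeted libraries and 2.58%, 2.04% and 2.47% in sections (means 4.43% ± 0.42 and 2.36% ± 0.29, SD, n = 3 each). Every Leydig-targeted library was above every section. Of its 14 tested members, 2 were called higher and none lower, against the 1.33% and 3.31% of all genes, and 8 lay above every section in CPM, beside 6.98% of all tested genes. The median log2 difference of the 14 was 0.57, and from 0.53 to 1.0 across the scalings, with 1 to 7 members higher.

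The 2 called members are the electron partners of the mitochondrial cytochrome that cleaves cholesterol. Fdx1, the ferredoxin (chromosome 9, 51943306 to 51963556, minus strand), was at 472, 403 and 592 CPM against 135, 112 and 118 (1.63 ± 0.46, adjusted p = 0.016). Fdxr, the ferredoxin reductase, was at 151, 353 and 132 CPM against 46.2, 74.0 and 49.7 (1.68 ± 0.55, adjusted p = 0.049). Neither call was firm. Fdx1 was not called without Leydig-targeted library 1 or without any 1 of the section libraries (adjusted p from 0.079 to 0.14). Fdxr kept its call in 1 of the 6 fits that left out a library, the one without Leydig-targeted library 3, and adjusted p in the others ran from 0.054 to 0.35. It was not called with TMMwsp either, a variant of TMM for sparse counts.

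The enzymes downstream were higher in level without passing the test. Hsd17b3, which makes testosterone from androstenedione, stood at 509, 605 and 789 CPM against 193, 222 and 183 (1.28 ± 0.43, adjusted p = 0.060). Hsd3b1 (chromosome 3, 98852194 to 98859794, minus strand) stood at 6773, 9348 and 10520 CPM against 4942, 4521 and 3509 (0.65 ± 0.32, adjusted p = 0.21). Cyp17a1, the lyase of androgen synthesis on chromosome 19 (46667165 to 46673172, minus strand), was among the most abundant transcripts of either area. It stood at 20810, 25927 and 17359 CPM against 12784, 7946 and 13783, with every Leydig-targeted library above every section (0.57 ± 0.31, adjusted p = 0.24).

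Star and Cyp11a1 had overlapping levels in both areas. Star was at 868, 1083 and 1052 CPM against 1068, 788 and 1072. Its log2 difference of -0.31 ± 0.38 turned to 0.04 with library size scaling, so no direction can be given. Cyp11a1 was at 94.3, 75.6 and 197 CPM against 101, 102 and 165, with 11 Leydig-targeted counts in all (-0.52 ± 0.62). Akr1cl, a hydroxysteroid dehydrogenase relative, did not overlap, at 6113, 7433 and 8548 CPM against 3836, 3695 and 3792, and was not called (0.58 ± 0.33, adjusted p = 0.26).

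The list of Leydig receptors and identity genes held 4.09% ± 0.88 of counts in Leydig-targeted libraries and 2.43% ± 0.15 in sections (SD, n = 3 each). Much of this is Ptgds, prostaglandin D synthase, the most abundant transcript of the Leydig area. Ptgds was at 26432, 26633 and 41031 CPM against 18530, 17827 and 21080 (0.30 ± 0.30, adjusted p = 0.59). Of 16 tested members, 2 were higher, Gramd1b and Vcam1, and 1 was lower, Amhr2, while 6 were above and 5 below every section in CPM, beside 6.98% and 23.2% of all tested genes. The list's median log2 difference was 0.19, and from 0.15 to 0.63 across the scalings, where 2 to 5 members were higher and 0 or 1 lower.

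Vcam1, an adhesion molecule of adult Leydig cells, was at 3377, 3628 and 5129 CPM against 1114, 1747 and 1343 (1.14 ± 0.34, adjusted p = 0.030). The call was lost without Leydig-targeted library 1 or 2 or section library 1 or 3 (adjusted p from 0.070 to 0.21). Amhr2, the receptor of anti-Müllerian hormone, was at 509, 454 and 395 CPM against 893, 941 and 1032 (-1.34 ± 0.42, adjusted p = 0.036). It was not called with library size scaling or with TMM from better counted genes, nor without Leydig-targeted library 2 or any 1 section library (adjusted p from 0.078 to 0.18).

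Several defining Leydig genes were not called. Nr5a1, the transcription factor known as steroidogenic factor, was at 566, 630 and 789 CPM against 498, 413 and 528, with every Leydig-targeted library the higher in CPM and a TMM log2 difference of 0.08 ± 0.41. Sult1e1, an estrogen sulfotransferase, was at 1019, 1134 and 526 CPM against 395, 574 and 127, and the groups overlapped (1.08 ± 0.40, adjusted p = 0.082). Prlr, the prolactin receptor, was at 1773, 1411 and 592 CPM against 446, 638 and 500 (1.07 ± 0.38, adjusted p = 0.070). Lhcgr, the receptor of luteinizing hormone, had 16, 1 and 0 counts in the Leydig-targeted libraries and 35, 19 and 10 in the sections. Its log2 difference of 1.23 ± 0.60 turned to -1.90 without Leydig-targeted library 1, which held 16 of its 17 counts. Esr1 (0.92 ± 0.50) and Nr2f2 (0.82 ± 0.53), also uncalled, leaned higher. Other uncalled members of the list leaned lower, namely Igf1 (-2.25 ± 0.87), Inha (-1.34 ± 0.51), Gata4 (-0.70 ± 0.47), Gata6 (-1.86 ± 1.34) and Ednra (-1.78 ± 1.35). Gata6 and Ednra had 1 Leydig-targeted count each.

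**Figure D4:**
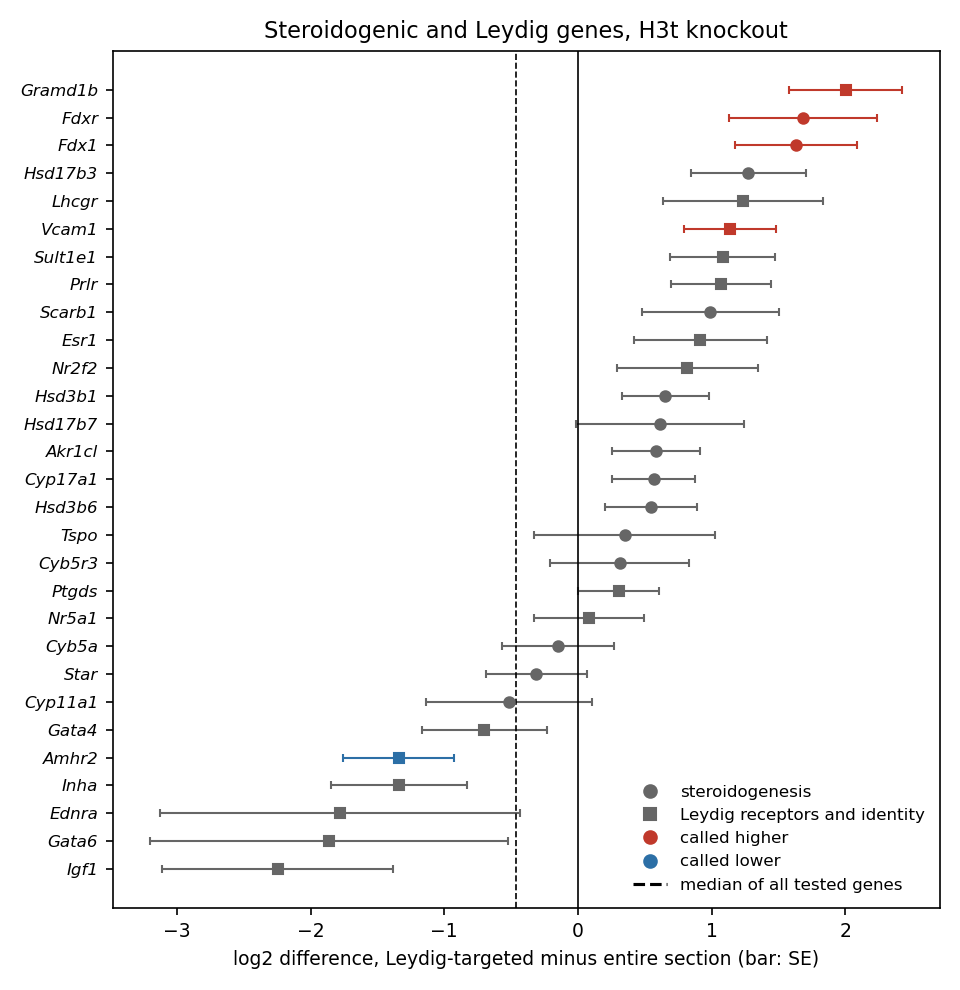
log2 difference, Leydig-targeted minus entire section (x axis, bars are SE), of the tested members of the steroidogenesis list (circles, 14 genes) and the Leydig receptors and identity list (squares, 15 of its 16 genes) in H3t knockout testis. Gramd1b, Fdxr, Fdx1 and Vcam1 are called higher and Amhr2 lower, and the dashed line at -0.47 is the median of all tested genes.

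Genes that make and take up cholesterol, the starting material of steroids, held 0.572% ± 0.048 of counts in Leydig-targeted libraries and 0.263% ± 0.025 in sections (SD, n = 3 each). Of 24 tested members 3 were higher and none lower, beside 1.33% and 3.31% of all tested genes. In CPM 11 were above every section, beside 6.98% of all tested genes. The median log2 difference was 0.64 (0.59 to 1.04 across the scalings, with 3 to 5 higher). Fdft1, squalene synthase, the first enzyme committed to sterols (chromosome 14, 63145150 to 63179578, minus strand), was at 302, 202 and 329 CPM against 25.2, 15.3 and 18.6. It had 29 Leydig-targeted counts and 24 section counts from an 11.0-fold deeper sum, and differed by 3.42 ± 0.59 (adjusted p = 4.3e-06), a call kept without any 1 library.

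Of the other higher members, Fdps, farnesyl diphosphate synthase, acts before squalene. It was at 396, 101 and 263 CPM against 39.9, 30.6 and 52.8 (2.38 ± 0.55). It was not called without Leydig-targeted library 1 (adjusted p = 0.27) or section library 1 (0.082). Abca1, which exports cholesterol and stands in none of these lists, was at 981, 1361 and 2301 CPM against 456, 434 and 332 (1.46 ± 0.39) and was not called without section library 1 or 3 (adjusted p 0.073 and 0.093). It was chosen after its values were seen. In the list of fatty acid and lipid droplet genes none of 12 was called by edgeR or DESeq2 (2 at an unadjusted p under 0.05). With library size scaling, or TMM from better counted genes, 1 was higher and the median of -0.11 turned positive (0.21 and 0.29). Elovl5, a fatty acid elongase, was at 1623, 1461 and 2301 CPM against 1005, 1015 and 659.

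**Figure D5:**
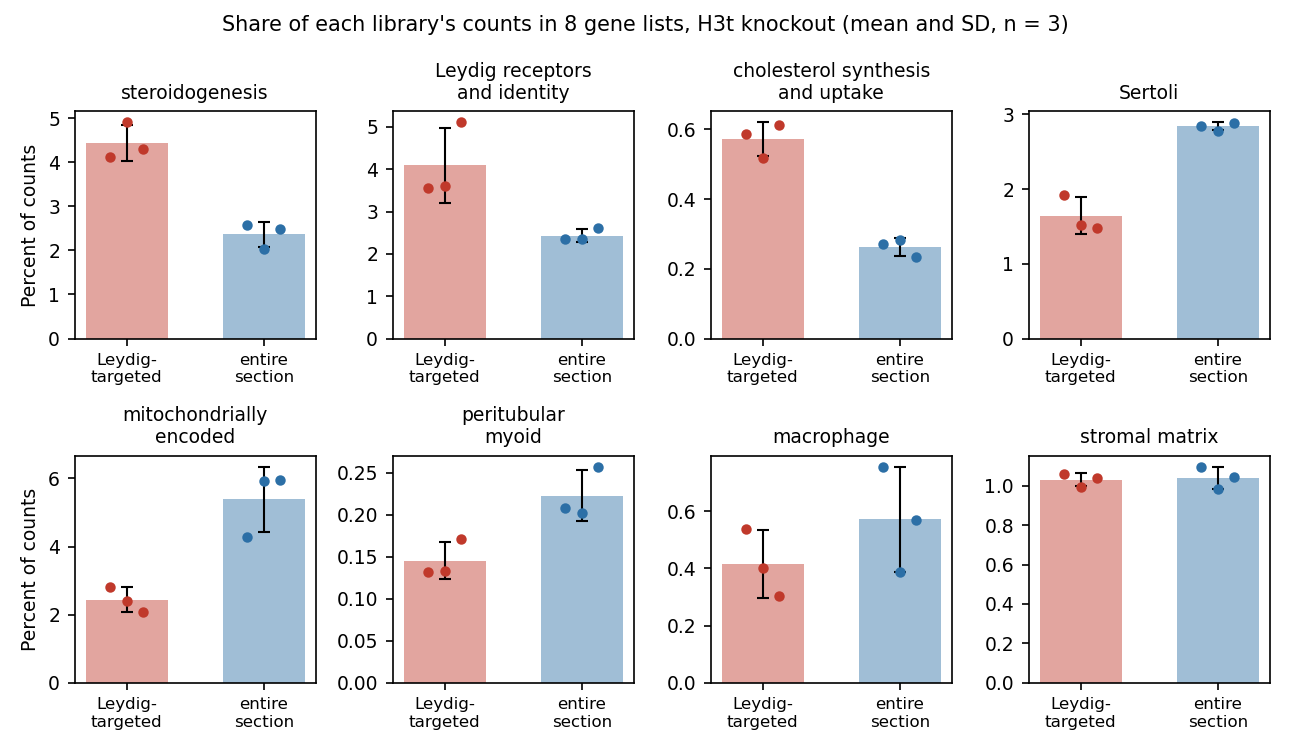
Percent of a library's counts (y axis) in 8 gene lists for 3 Leydig-targeted libraries and 3 entire sections of H3t knockout testis, with bars for means, whiskers for SD and points for libraries. The steroidogenesis (4.43% against 2.36%) and cholesterol lists take more of the Leydig-targeted libraries, and the Sertoli (1.64% against 2.84%) and mitochondrially encoded (2.43% against 5.39%) lists take less.

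Sertoli cell transcripts were the largest block of lower genes among the cell type lists. The Sertoli list held 1.93%, 1.51% and 1.49% of counts in Leydig-targeted libraries and 2.85%, 2.78% and 2.89% in sections (means 1.64% ± 0.25 and 2.84% ± 0.05, SD, n = 3 each), with no overlap. Of 27 tested members 14 were lower and none higher, beside 3.31% and 1.33% of all tested genes. In CPM 17 were below every section, beside 23.2% of all tested genes. The list's median was -1.55, and between -1.59 and -1.13 across the scalings, where 6 to 14 members were lower. Leaving out 1 library left 5 to 14 lower, with 5 without section library 1 or section library 3 and 8 without section library 2.

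The Sertoli cystatin-family genes, secreted proteins of the Cst cluster on chromosome 2, were among the clearest. Cst9 (148835147 to 148838738, plus strand) was at 547, 353 and 197 CPM against 1877, 1599 and 1858 (-2.42 ± 0.41, adjusted p = 2.8e-06). Cst12 was at 396, 252 and 329 CPM against 958, 1316 and 1486 (-2.22 ± 0.43). Cldn11, the claudin of the tight junctions between Sertoli cells, was at 623, 655 and 65.8 CPM against 1803, 1665 and 1778 (-2.04 ± 0.40, adjusted p = 8.8e-05). Sox9, the transcription factor that sets Sertoli fate, was at 208, 176 and 65.8 CPM against 946, 612 and 581 (-2.34 ± 0.49). All 4 kept their call without any 1 library, and in each case the highest Leydig-targeted library lay below the lowest section. Clu, the secreted chaperone clusterin and the most abundant member named, was at 6509, 5014 and 4274 CPM against 7603, 7015 and 8525 and was not called (-0.85 ± 0.33, adjusted p = 0.099).

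Other lower genes were not in the cell type lists. Marcksl1, an actin-binding substrate of protein kinase C on chromosome 4 (129513581 to 129515985, plus strand), had the smallest p of the named lower genes. It was at 189, 302 and 132 CPM against 2302, 1242 and 1075, a log2 difference of -3.09 ± 0.45 (adjusted p = 1.5e-08). Isyna1, the enzyme that makes inositol phosphate from glucose phosphate, was at 1113, 907 and 1512 CPM against 3140, 2428 and 3851 (-1.81 ± 0.37). Pkm, the pyruvate kinase of glycolysis, was at 113, 580 and 65.8 CPM against 1282, 887 and 1228 (-2.33 ± 0.45). The Leydig-targeted libraries differed widely among themselves for Pkm, yet all lay below the lowest section.

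The remaining lower genes named by rank had varied roles as well. The log2 difference was -2.71 ± 0.49 for Wipf3, an actin regulator, -2.92 ± 0.56 for Ssh1, a cofilin phosphatase, and -2.84 ± 0.53 for Mark4, a microtubule-affinity kinase. Cadm1, a cell adhesion molecule, differed by -2.86 ± 0.53, Syt7, a calcium sensor of vesicle fusion, by -2.50 ± 0.49 and Pdia5, a protein disulfide isomerase, by -3.06 ± 0.61. Vwa1, an extracellular matrix protein with 3 Leydig-targeted counts, was 11.5-fold lower as a ratio of summed CPM (counting interval 3.90 to 56.0). Tnik, a kinase with 2 counts, was 14.8-fold lower (4.07 to 123). Adgrg1, an adhesion receptor with 0 Leydig-targeted counts and 216 in the sections, was at least 6.53-fold lower against the floor of 3 counts over the group. These 12 genes, Marcksl1 to Adgrg1, kept their call without any 1 library.

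Genes of the tubule wall and the connective tissue gave fewer calls. Of 10 peritubular myoid genes tested 2 were lower, beside 3.31% of all tested genes. The list's median of -0.29 turned to 0.01 with library size scaling. Myh11, smooth muscle myosin, had 2 Leydig-targeted counts and 286 in the sections, a 13-fold lower summed level (3.56 to 108), and was called without any 1 library. Acta2, smooth muscle actin, was at 264, 454 and 658 CPM against 944, 834 and 1178 (-1.58 ± 0.43) and was not called with the TMM factors of better counted genes as well as without Leydig-targeted library 1 or section library 1 or 3 (adjusted p from 0.084 to 0.14). Of 18 stromal matrix genes 1 was higher and 2 lower, beside 1.33% and 3.31% of all tested genes. Igfbp7, a secreted binder of insulin-like growth factors, was higher, at 1113, 1285 and 658 CPM against 294, 388 and 252 (1.48 ± 0.40), but not without Leydig-targeted library 2 or section library 1 or 3 (adjusted p from 0.075 to 0.13). Col1a1, a fibrillar collagen, was lower at 18.9, 50.4 and 132 CPM against 269, 184 and 587 (-3.14 ± 0.68) and was not called without section library 3 (0.082). Mgp, matrix Gla protein, with 2 Leydig-targeted counts, was 10.1-fold lower (2.75 to 83.6) and was not called without Leydig-targeted library 1 or section library 1 or 3 (0.050 to 0.076).

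Macrophages share the interstitium with Leydig cells, and their list gave no call among 16 tested genes by edgeR or DESeq2 (4 at an unadjusted p under 0.05). With TMMwsp 1 was lower, as without Leydig-targeted library 3 or section library 2, and without Leydig-targeted library 1 there were 2. The list held 0.415% ± 0.119 of counts in Leydig-targeted libraries and 0.572% ± 0.184 in sections (SD, n = 3 each), with overlap. The complement subunit C1qb was at 208, 151 and 197 CPM against 526, 235 and 519 (-1.50 ± 0.50, adjusted p = 0.054). None of 6 endothelial genes was called by either tool (1 at an unadjusted p under 0.05), and 9 of the list's 16 had 0 Leydig-targeted counts, with 14 counts for the whole list against 299 in the sections. The single red blood cell gene tested, Hbb-bs, a beta globin, had 0, 6 and 0 counts against 13, 29 and 12. Of lymphoid and mast cell markers only Kit and Ptprc could be tested. Ptprc, the leukocyte marker, had 0 Leydig-targeted counts and 29 in the sections, which leaves no fold to state.

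Kit, the receptor of stem cell factor, is carried by Leydig cells as well as by spermatogonia and mast cells. It was at 679, 756 and 986 CPM in the Leydig-targeted libraries and 242, 275 and 115 in the sections, without overlap (1.55 ± 0.42, adjusted p = 0.011, lost without section library 1 or 3 at 0.094 and 0.17). It counts in 3 of the lists, among them the spermatogonia list, where it was the 1 higher gene of 15 tested. The 2 lower genes of that list were Uchl1, a ubiquitin hydrolase, and Dmrt1, a transcription factor of Sertoli cells and spermatogonia. Uchl1 had 8, 1 and 0 counts against 154, 115 and 119 (-2.29 ± 0.60, lost without Leydig-targeted library 2 or section library 1 or 3 at 0.078 to 0.086). Dmrt1 had 0 counts against 96, at least 2.90-fold lower, and kept its call in 1 of the 6 fits that left out a library, the one without Leydig-targeted library 3 (0.054 to 0.098 in the others).

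Later germ cells were rare in both areas. The spermatocyte and spermatid lists together held 0.051% ± 0.022 of counts in Leydig-targeted libraries, 63 counts in all, and 0.118% ± 0.052 in sections, 1355 counts (SD, n = 3 each). Of 10 spermatocyte genes 1 was lower, Meig1, a meiosis-expressed gene, with 1 count against 118, a 10.7-fold lower summed level (1.88 to 426). That call was absent with library size scaling, with DESeq2 and with TMM from better counted genes, and was lost without Leydig-targeted library 1 or 2 or section library 1 or 3 (0.062 to 0.20). The 1 round spermatid gene tested, Tnp1, a transition protein, had 0 Leydig-targeted counts and 20, 3 and 35 in the sections and was not called (adjusted p = 0.065). None of 5 elongating spermatid genes was called by edgeR or DESeq2, although all 5 had an unadjusted p under 0.05, and 2 were called lower without section library 2. Prm1, a protamine, had 1 Leydig-targeted count, against 31, 3 and 66 in the sections. Section library 2 was low for both Tnp1 and Prm1.

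Signals between the cell types gave 2 higher and 2 lower genes of 12 tested, beside 1.33% and 3.31% of all tested genes. Besides Kit, Lifr, the receptor subunit of leukemia inhibitory factor, was higher at 1038, 454 and 1052 CPM against 294, 349 and 155 (1.31 ± 0.41). Its call was lost without Leydig-targeted library 1 or any 1 section library (adjusted p from 0.067 to 0.27). Besides Amhr2, Inhbb, the inhibin and activin subunit of Sertoli cells, was lower with 7, 0 and 1 counts against 184, 82 and 132 (-2.48 ± 0.61), and this was lost without Leydig-targeted library 2 or section library 1 or 3 (0.068 to 0.085). Ghr, the growth hormone receptor, was called higher with 13, 0 and 8 counts against 12, 12 and 10, although its libraries overlapped. Egfr, the epidermal growth factor receptor, was at 75.5, 151 and 132 CPM against 12.6, 12.8 and 9.32 (2.92 ± 0.76). Ghr lost its call without Leydig-targeted library 1 (0.13) or section library 1 (0.10), and Egfr without Leydig-targeted library 2 or section library 1 or 3 (0.054 to 0.096). Ghr and Egfr were chosen after their values were seen.

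Mitochondrially encoded transcripts took 2.43% ± 0.37 of counts in Leydig-targeted libraries and 5.39% ± 0.96 in sections (SD, n = 3 each), with no overlap. Of 12 tested genes on the mitochondrial chromosome 7 were lower and none higher with TMM, beside 3.31% and 1.33% of all tested genes. Library size scaling gave 6 lower and 1 higher, and TMM from better counted genes 6 lower and 2 higher. Leaving out 1 library left 3 to 7 lower, with 3 without section library 3. The list's median was -1.26, and between -1.30 and -0.84 across the scalings. mt-Nd4, a subunit of complex I, was at 8452, 7080 and 4734 CPM against 14301, 19061 and 20201 (-1.68 ± 0.32, adjusted p = 6.8e-05). mt-Rnr2, the large ribosomal RNA, was at 1377, 907 and 395 CPM against 2184, 3562 and 4342 (-2.07 ± 0.37), and mt-Cytb, of complex III, was lower by a log2 difference of -1.46 ± 0.32. These 3 kept their call without any 1 library, while mt-Nd1, also of complex I (-1.43 ± 0.33), missed it without section library 3 (0.051). mt-Atp6, of the ATP synthase, was at 245, 353 and 263 CPM against 48.3, 156 and 55.9, in the opposite direction to those 4, and was not called (1.45 ± 0.50, adjusted p = 0.065). What part cell type, RNA quality or the library pool has in the mitochondrial difference was not tested.

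Of 46 tested nuclear genes of the respiratory chain 1 was higher and none lower, near the 1.33% and 3.31% of all tested genes, with a median of 0.12. The difference from the mitochondrially encoded list was not tested. The higher gene was Cox7b, a subunit of cytochrome c oxidase, at 340, 378 and 592 CPM against 94.6, 191 and 68.4 (1.46 ± 0.47, adjusted p = 0.044). It was not called with TMMwsp, nor without Leydig-targeted library 1 or 2 or section library 1 or 3 (adjusted p from 0.082 to 0.27).

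The title of the series names stress in Leydig cells, and the 5 stress lists are given here one by one, beside the 4.65% called over all tested genes. Of 34 glutathione and antioxidant genes 3 were lower and none higher with TMM, while library size scaling gave 3 lower and 1 higher. The list took 4.19% ± 0.52 and 4.24% ± 0.81 of counts (SD, n = 3 each), largely from Gstm1 and Gstm2, glutathione transferases. Gstm1 was at 14622, 17386 and 11639 CPM against 16760, 10026 and 11903, with full overlap. The lower genes were Mt1, a metal-binding metallothionein, at 1509, 1839 and 2301 CPM against 4187, 2700 and 4522 (-1.41 ± 0.35), Gpx1, a glutathione peroxidase, at 113, 176 and 65.8 against 517, 428 and 469 (-2.15 ± 0.53), and Gstm6. Gstm6, which is also a Sertoli marker and has close copies, was at 396, 328 and 592 CPM against 1061, 737 and 1078 (-1.55 ± 0.43). Mt1 was not called without section library 1 or 3 (0.073 and 0.088), Gpx1 without section library 1 (0.083), and Gstm6 without Leydig-targeted library 2 or section library 1 or 3 (0.085 to 0.15) or with TMM from better counted genes.

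Of 15 heat shock genes 1 was lower. Hspb1, a small heat shock protein, had 1 count against 209, a 19-fold lower summed level (3.37 to 752), and was called without any 1 library. Of 16 endoplasmic reticulum stress genes 1 was higher, Hsp90b1, a chaperone of that compartment, with 30, 21 and 0 counts against 77, 57 and 29. Its libraries overlapped (1.44 ± 0.45, adjusted p = 0.038), DESeq2 did not call it, and it kept its call in 1 of the 6 fits that left out a library, the one without Leydig-targeted library 3 (0.12 to 0.26 in the others). None of 13 p53, senescence and apoptosis genes was called by edgeR or DESeq2 (4 at an unadjusted p under 0.05), while 1 was higher with library size scaling, with TMM from better counted genes or without Leydig-targeted library 2. Trp53 itself, which is in none of the lists, had 0 Leydig-targeted counts and 125 in the sections, at least 3.78-fold lower. That call was lost without Leydig-targeted library 1 or section library 1 (0.056 and 0.085), and the gene was chosen after its values were seen. Mdm2, the ubiquitin ligase of p53, was at 226, 75.6 and 394 CPM against 79.9, 66.3 and 24.9 (1.46 ± 0.57, adjusted p = 0.10). Bcl2l1, Cdkn1a and Sesn1, also at an unadjusted p under 0.05, leaned lower. They had 0, 0 and 10 Leydig-targeted counts against 49, 38 and 221. The median of the p53 list was -0.57. Of its 13 genes, none lay above and 5 lay below every section in CPM, beside 6.98% and 23.2% of all tested genes. None of 9 immediate early genes was called by either tool (3 at an unadjusted p under 0.05), and 1 was lower without Leydig-targeted library 2.

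Proliferation could hardly be measured in the Leydig area. The cell cycle list of 24 genes had 34 Leydig-targeted counts in all, 0.030% ± 0.015 of counts, and 770 in the sections, 0.063% ± 0.014 (SD, n = 3 each). None of 15 tested genes was called by edgeR or DESeq2 (7 at an unadjusted p under 0.05, and 1 lower without Leydig-targeted library 2), and 16 of the 24 had 0 Leydig-targeted counts, among them Cenpf, a mitotic centromere protein, with 44 counts in the sections. At this depth a difference in single cell cycle genes was not detectable.

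The last lists held secreted and retinoid genes. None of 13 acute phase and interferon genes was called by edgeR or DESeq2 (1 at an unadjusted p under 0.05), while library size scaling and TMM from better counted genes each called 1 higher. Lcn2, lipocalin 2, an iron-binding secreted protein, was at 19905, 17612 and 16636 CPM against 22465, 12584 and 22979, among the most abundant transcripts in both areas. Of 10 retinoid genes 1 was lower, Cyp26b1, which breaks down retinoic acid, with 5, 5 and 0 counts against 206, 133 and 78 (-2.16 ± 0.58, lost without section library 1 at 0.18). Aldh1a1, which makes retinoic acid, was at 8226, 8214 and 10915 CPM against 6329, 6069 and 4811 and was not called (0.29 ± 0.32).

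The promoters of the called genes were searched for CAAGGTCA, the form of site known to be bound by Nr5a1, on either strand of the window from 250 bases before to 50 after the start. The motif was chosen after the calls were known. Of genes with a window in the RefSeq table, 5 of 66 called higher held it (7.58%) and 2 of 206 called lower (0.971%), beside 1.24% of 6299 tested genes and 1.56% of 32851 windows in all. The windows of Fdx1, Fdxr, Hsd17b3, Hsd3b1, Agt and Kit held none, which says only that these letters are absent there. The matches are descriptions of sequence and not binding sites. They are shown for 3 higher genes and for the lower gene Amhr2, with the motif or its reverse complement TGACCTTG in capitals, 5′ to 3′ on the gene's strand, from RefSeq on GRCm38.p6 at chr13:93637814-93637843 (minus), chr13:59769907-59769936 (minus), chr15:7129322-7129351 (plus) and chr15:102445124-102445153 (plus).
Bhmt: tgaccccagatCAAGGTCAgaggcctgcta
Isca1: cgcgaagcccgCAAGGTCAcaggtcacctc
Lifr: cggTGACCTTGcaaggctggccgcgcgacc
Amhr2: gcaccttcttcCAAGGTCAgtaggggtaga

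Of the genes with this stretch, Bhmt, an enzyme that remethylates homocysteine with betaine, had the higher counts. It was at 2339, 2595 and 2301 CPM against 689, 989 and 503 (1.41 ± 0.36, adjusted p = 0.0060) and was not called without section library 1 or 3 (0.082 and 0.098). Isca1, which assembles iron-sulfur clusters in mitochondria, had 7, 3 and 1 counts against 5, 8 and 2 (2.67 ± 0.77) and was not called without Leydig-targeted library 1 or section library 1 or 3 (0.11 to 0.24). The motif starts 74 bases before the start of Bhmt, 136 before that of Isca1, 247 before that of Lifr and 232 before that of Amhr2.

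Whether the Leydig area differs from the section in the same way in knockout and wild-type testis was tested as an interaction over all 12 libraries and 12140 genes. The difference between the 2 region effects was called for 21 genes, 0.173% of those tested, 12 with the larger value in knockouts and 9 with the larger value in wild type. That split turned with the processing, to 16 and 71 with library size scaling, 6 and 48 with the package's expression filter, 2 and 17 with TMMwsp and 53 and 25 with DESeq2. Leaving out 1 of the 12 libraries gave 4 to 44 called genes. Sesn1, a stress-induced sestrin that p53 is known to activate, was 1 of the 21. It was at 113, 101 and 0 CPM in knockout Leydig-targeted libraries and 135, 250 and 183 in knockout sections, while in wild type it was at 219, 186 and 0 against 24.7, 21.0 and 0. Its interaction log2 was -3.76 ± 0.93 (adjusted p = 0.036). None of the steroidogenesis, cholesterol or Sertoli genes named above was called for the interaction. Akr1cl had the region effects 0.58 ± 0.33 in knockouts and 2.25 ± 0.52 in wild type (interaction adjusted p = 0.40), and Mt1 -1.41 ± 0.35 and -3.76 ± 0.58 (0.20). These knockout effects are from the fit of the 6 knockout libraries and the wild-type effects from a fit of all 12. The 2 fits have their own scaling, so the effects are not on a common scale. The shallowest of the 12 libraries, wild-type Leydig-targeted library 3 with 5947 counts, enters the interaction test. A missing call therefore does not show that the region effects are alike.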

How the data were processed

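Counts per gene were deposited by the authors as raw whole numbers, 1 column per library, without normalization. The tools named per the submitters' processing notes are featureCounts, HISAT2, Trim Galore and UMI-tools, on build GRCm38. No source used here gives their versions or the strand setting, and reads of overlapping or antisense genes cannot be separated. Positions are from the annotation of that build. The members and gene lists were chosen with earlier results of these data known.

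Genes with 20 or more counts summed over the 6 knockout libraries were tested with edgeR 4.0.16 (robust quasi-likelihood test, TMM scaling) in R 4.3.3, called at a Benjamini-Hochberg adjusted p under 0.05. The filter's edge held 188 genes with 20 counts and 162 with 19. The interaction used genes with 20 counts over 12 libraries. CPM is counts per 1000000 of library total. Ratios on 1 to 3 counts have exact 95% counting intervals, and floors are 3 counts over a group. Both cover counting error only. The script was tested on simulated data. Alternatives were DESeq2 1.42.0, other scalings and filters, a replicate block and leaving out each library.

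Named genes are the 15 higher and 15 lower of smallest p without library overlap, leaving out predicted models, mitochondrial and ribosomal genes; up to 4 members of each of 26 lists by p, of which the text gives a selection; Leydig list members; the 10 most abundant genes of each area; and 10 interaction genes. Some genes these rules take are not reported here. The lists hold 531 distinct genes, 357 of them tested. Promoter and microRNA sequences are from RefSeq (GRCm38.p6).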

Additional observations from a re-analysis of the deposited data

Results flagged for a closer look

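The genes below had region effects that differed between knockout and wild type by the interaction test (edgeR, adjusted p under 0.05). Values are the knockout log2 difference, Leydig-targeted minus section, minus the wild-type one. Where a group had no counts the fitted value depends on the prior count and is no bound. Without knockout section library 2, 7 of the genes below lost their call, as did 7 without wild-type section library 3. Without knockout section library 1 it was 6, and 6 without wild-type Leydig-targeted library 2. All 11 kept their call without wild-type Leydig-targeted library 3, and each other library left out cost 1 to 3 calls.

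Gm29216, a predicted gene annotated as a pseudogene on chromosome 1 (24615706 to 24616197), had the interaction value -10.66. It was at 226, 227 and 65.8 CPM in knockout Leydig-targeted libraries and 2249, 4972 and 2306 in knockout sections. In wild type the order was the opposite, with 6596, 7709 and 14797 CPM in the Leydig area and 30.01, 47.83 and 60.60 in the sections. Gm13341, another predicted gene, had -3.50, with 1000, 1411 and 723 CPM against 513, 558 and 407 in knockouts and 5740, 6852 and 7062 against 205, 126 and 113 in wild type.

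Gm14128 had 10.78, from 8, 0 and 0 counts against 0 in knockout sections and 1, 0 and 0 against 65, 57 and 27 in wild type. Gm10721 had -5.31, from 1 count in each knockout Leydig-targeted library and 22, 13 and 10 in the wild-type ones. B3gnt3, a glycosyltransferase, had -4.97, with 273, 261 and 673 CPM in the wild-type Leydig area and 3.53, 5.74 and 4.04 in wild-type sections. Tead1, a transcription factor of the Hippo pathway, had -10.01, with 0 counts in the knockout Leydig area. Pir, a nuclear iron-binding protein, had -6.81 on 1 knockout Leydig-targeted count.

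Tmem106c, a membrane protein, had 8.70 and Rsl24d1, a ribosome assembly factor, had 8.46, both with 0 counts in the wild-type Leydig area. Cetn4, a centrin, had 4.44, with 94.3, 126 and 65.8 CPM against 12.6, 15.3 and 31.1 in knockouts and 601, 782 and 504 against 1453, 1890 and 1487 in wild type. Sesn1 had -3.76.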

How the results depend on the processing

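Depth was 1 limit: Leydig-targeted libraries held 15208 to 53003 counts, and no gene with a section level under the floor was called lower. Against 108 higher genes, library size scaling gave 245, the package's expression filter 229, TMM from genes with 100 summed counts 290, and leaving out 1 library 19 to 181. Against 268 lower genes these gave 168, 243, 144 and 57 to 323, a minimum of 100 counts gave 150 and no filter 435. With that minimum 156 genes were higher, and with no filter 87. Same-numbered libraries correlated at 0.0732, -0.0018 and 0.0080 in their deviations. With 3 libraries a group and noisy Leydig-targeted libraries, this cannot decide whether same-numbered libraries share an animal or section. With a replicate block 14 genes were higher and 59 lower, and 9 were called for the interaction.

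Against 21 interaction genes, library size scaling gave 87, the expression filter 54, DESeq2 78, TMMwsp 19 (added after the data were seen) and leaving out 1 library 4 to 44. Without mitochondrial genes and predicted models the section share was 3.18% for the Sertoli list and 5.38% for the steroidogenesis and Leydig lists together (2.84% and 4.80% before).

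Among the genes reported, direction turned only for some that were not called. With no filter it did for Ptgds (-0.0065), Cyb5r3 (-0.0068), Nr5a1 (-0.24) and Aldh1a1 (-0.025). With library size scaling it did for Cyb5a (0.19), Star (0.040), Gstm2 (0.011) and Gstm1 (0.20). With the expression filter it did for Cyb5a (0.10) and Gstm1 (0.10). With a minimum of 100 counts it did for Cyb5a (0.31), Lcn2 (0.018), Star (0.15), Gstm2 (0.12) and Gstm1 (0.31). With TMM from genes with 100 counts, added after the data were seen, it did for Cyb5a (0.27), Star (0.11), Gstm2 (0.084) and Gstm1 (0.27). It did for Tspo with the replicate block (-0.0032). Leaving out 1 library gave -0.23 to 0.68 for Cyb5r3, -1.90 to 1.76 for Lhcgr, -1.08 to 0.66 for Tspo, -0.34 to 0.13 for Gstm1 and -0.024 to 0.22 for Nr5a1. The cause was not tested.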

Other observations

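These values were chosen after they were seen and belong to no gene list of the report. Acsbg1, an acyl-CoA synthetase on chromosome 9, was among the better counted higher genes, at 3943, 4006 and 5260 CPM in the Leydig-targeted libraries and 1391, 1696 and 1526 in the sections (log2 difference 1.14 ± 0.34, SE, adjusted p = 0.028). Aox1, an aldehyde oxidase, was at 491, 781 and 1249 CPM against 191, 219 and 311 (1.33 ± 0.42, adjusted p = 0.038). Both kept their call in 1 of the 6 fits that left out a library, Acsbg1 in the one without Leydig-targeted library 3 (0.052 to 0.17 in the others) and Aox1 in the one without Leydig-targeted library 1 (0.054 to 0.27 in the others).

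4930430E12Rik, an antisense transcript on chromosome 4 (6352105 to 6357530, minus strand), had 0 counts in each Leydig-targeted library and 159, 166 and 165 in the sections. It was at least 14.8-fold lower and kept its call without any 1 library. Among the called genes, 25 of the 108 higher and 10 of the 268 lower were predicted gene models, of which 436 were tested, and 12 and 4 were pseudogenes, of which 127 were tested.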
